A study of Mus musculus with 12 samples.

Results

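Loss of p62 in the striatum of Huntington's disease (HD) model mice was examined in 6 of the 12 arrays of the series. Of these, 3 came from HD transgenic mice with a p62 knockout (HD_p62KO, genotype HD;p62-_-) and 3 from HD transgenic mice with normal p62 (HD_p62WT, HD;p62+_+). The arrays were chosen by genotype label alone, and all 19248 genes with a probe set of 1 gene symbol were compared between them, each by its brightest probe set. The other 6 arrays gave the level without the transgene, 3 from non-transgenic p62 knockouts (NT_p62KO, NT;p62-_-) and 3 from non-transgenic mice with normal p62 (NT_p62WT, NT;p62+_+). All mice were 8 weeks old, and each gave 1 array of whole striatal RNA. The HD line, the promoter of its transgene, the p62 allele, the strain and the sex are not named in the labels used here. The cross asks how the HD transcriptome differs when p62 is absent, and here in particular whether genes that differ in HD mice lie nearer to or farther from the non-transgenic level without p62.

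The protein p62, encoded by Sqstm1, is a scaffold that binds ubiquitinated proteins and LC3 and so delivers aggregates to autophagosomes. It also binds KEAP1, the inhibitor of the antioxidant factor NRF2, and takes part in signalling to NF-kappaB and mTORC1. In HD, an expanded polyglutamine tract in huntingtin forms nuclear and cytoplasmic inclusions, many of which carry ubiquitin and p62. The striatum is the region hit hardest, and its GABAergic projection neurons lose much of their characteristic gene expression.

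Values are log2 expression levels, so a difference of 1 is a 2-fold change, and the levels ran from 1.99 to 13.77. The array medians lay between 7.705 and 7.728, and replicate arrays of a group correlated at 0.988 to 0.995. The striatal label was borne out by Penk, the enkephalin precursor of indirect pathway neurons, at 12.51 to 13.27 in all 12 mice, and by the dopamine receptor gene Drd2 at 10.59 to 11.50. Markers of a neighbouring structure varied between mice. The summed level of 14 choroid plexus markers, given as the mean of values centred on the 12 arrays, was -0.76, 1.23 and 0.19 in the HD_p62KO mice and 0.53, -0.09 and -0.75 in the HD_p62WT mice. It was 0.33 to 0.54 in the 3 NT_p62KO mice and -0.67 to -0.36 in the 3 NT_p62WT mice. The spread of values within an array (SD over genes) was also uneven, and was smallest among HD mice in HD_p62WT replicate 2 (1.79) and HD_p62KO replicate 1 (1.81) against 1.85 to 1.87 in the other 4. In the non-transgenic mice it ran from 1.73 to 1.82, below those 4, and NT_p62KO replicate 3 had the smallest of the 12 (1.73). Spread thus differed partly with the transgene, and its part in the distances of HD mice from the non-transgenic level was not tested.

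Sqstm1 was the only gene that passed the test for p62 loss in HD mice. Its levels were 8.92, 9.13 and 9.02 in the HD_p62KO mice and 11.75, 11.26 and 11.51 in the HD_p62WT mice, so all 3 knockouts lay far below all 3 mice with normal p62. The log2 difference was -2.48 ± 0.11 (SE, n = 3 per group), a 5.58-fold lower level (limma, Benjamini-Hochberg adjusted p = 4.03e-07). In non-transgenic mice the levels were 8.44, 8.52 and 8.49 in knockouts and 11.19, 11.35 and 11.24 with normal p62, a difference of -2.78 ± 0.11 (adjusted p = 1.05e-07). The remaining signal in knockouts was above the non-transgenic knockouts in each of the 3 HD mice. Which part of the gene the knockout removes is not named in the labels, and Sqstm1 has 1 probe set here.

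**Figure D1:**
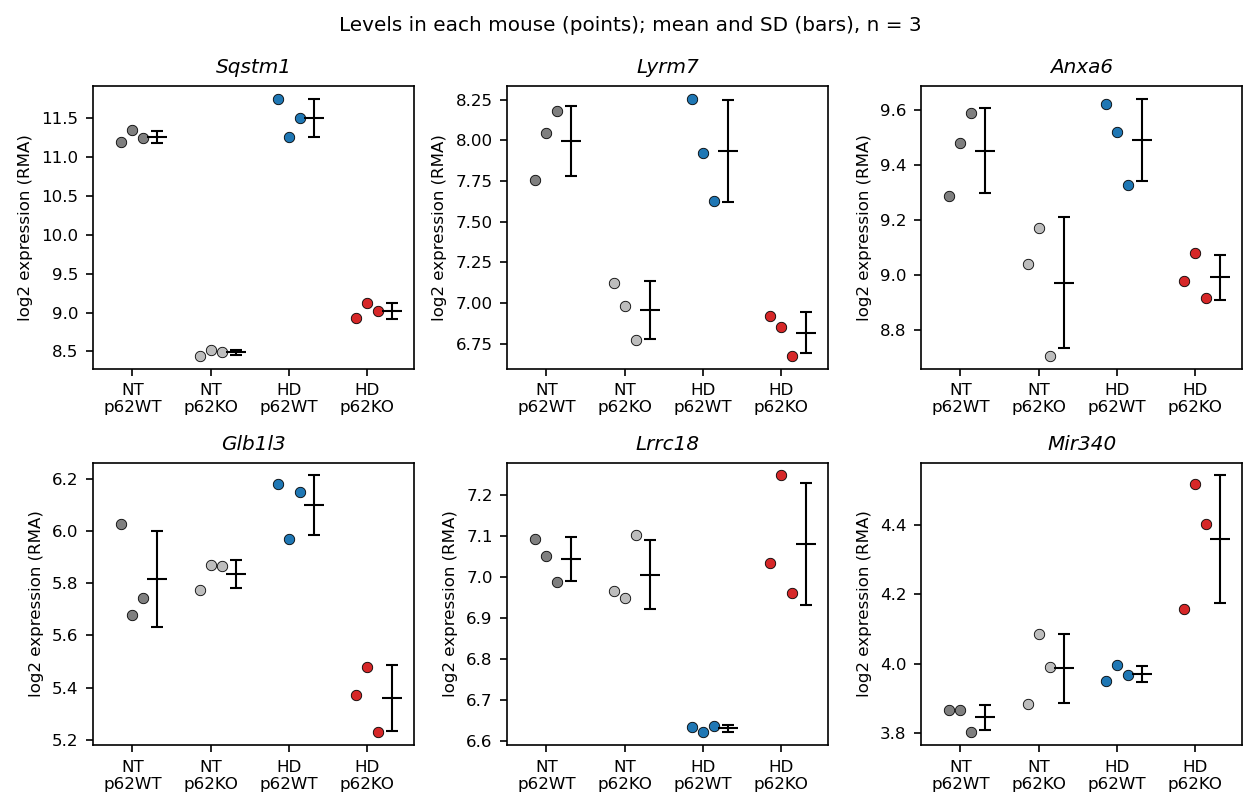
Log2 expression of 6 genes in each mouse of the 4 groups, with the group mean and SD (bars, n = 3). Sqstm1, Lyrm7 and Anxa6 are lower in both knockout groups than in both groups with normal p62, and Glb1l3 and Lrrc18 show HD_p62KO mice apart from HD_p62WT mice while the non-transgenic groups overlap.

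Over all 19248 genes, 1 passed an adjusted p of 0.05 for p62 loss in HD mice (0.0052%), and 555 passed 0.05 before adjustment. The same comparison in non-transgenic mice, which share no array with the HD comparison, also called Sqstm1 alone (0.0052%), with 639 before adjustment. The difference between the p62 effects in HD and non-transgenic mice called 0 genes in limma (0%), with 665 at an unadjusted p below 0.05. In HD mice the median difference was -0.0022, 49% of genes were higher in the knockouts, and 6 genes differed at least 2-fold. The 95% confidence interval of a gene had a median half-width of 0.21 on the log2 scale and was below 0.33 for 90% of genes. Differences within that width were not detectable with 3 mice per group. These intervals are not adjusted for the number of genes. After adjustment some much larger differences missed the threshold too, such as -1.12 in Lyrm7 and -0.74 in Glb1l3. For scale, the HD transgene with normal p62 moved 742 genes up (3.85%) and 624 down (3.24%), and without p62 it moved 2566 up (13.3%) and 1606 down (8.34%), both against non-transgenic mice of the same p62 genotype. The median absolute HD difference was 0.127 with normal p62 and 0.173 without it. Counts past a threshold do not test whether the 2 HD effects differ. That contrast is the same as the difference between the p62 effects, which called 0 genes.

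Groups that did not overlap serve here as a description of genes that missed the threshold. The 3 HD_p62KO mice lay wholly above the 3 HD_p62WT mice for 628 genes (3.26%) and wholly below for 792 (4.11%). In non-transgenic mice 1515 genes (7.87%) did not overlap, against 1420 (7.38%) in HD mice. For 115 genes neither pair of groups overlapped, and 57 of them differed in the same direction in HD and non-transgenic mice while 58 differed in opposite directions. Apart from Sqstm1, the differences of the 2 p62 comparisons had a Pearson correlation of -0.04 across 19247 genes, which are not independent replicates.

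Lyrm7 came closest to the threshold together with Glb1l3. Lyrm7, an assembly factor that matures the Rieske iron-sulphur subunit of respiratory complex III, was at 6.92, 6.85 and 6.68 in HD_p62KO mice and at 8.26, 7.92 and 7.63 in HD_p62WT mice. It was likewise at 7.12, 6.98 and 6.77 in NT_p62KO mice and at 7.76, 8.05 and 8.18 in NT_p62WT mice. All 6 knockouts lay below all 6 mice with normal p62, with or without the HD transgene. The difference was -1.12 ± 0.16 in HD mice (SE; adjusted p = 0.0653) and -1.04 ± 0.16 in non-transgenic mice (adjusted p = 0.136), so neither passed. Lyrm7 lies on chromosome 11, 4.63 Mb from Sqstm1 in the mouse genome (GRCm38.p6).

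Anxa6, the calcium-dependent membrane-binding protein annexin A6, lies 4.78 Mb from Sqstm1 and was singled out after its values were seen. It was at 8.98, 9.08 and 8.92 in HD_p62KO mice and at 9.62, 9.52 and 9.33 in HD_p62WT mice, with no overlap. The difference was -0.50 ± 0.12 (SE) in HD mice and -0.48 ± 0.12 in non-transgenic mice, where the groups did not overlap either. It did not pass in either. Within 10 Mb of Sqstm1, 226 other genes were measured, and their median difference was 0.001 in HD mice. Groups did not overlap for 20 of them in HD mice (8.85%) and for 25 in non-transgenic mice (11.1%), against 7.38% and 7.87% of all genes. In HD mice 13 of the 226 had an unadjusted p below 0.05 (5.75%, against 2.88% of all genes) and 6 had one below 0.01 (2.65%, against 0.488%). Lyrm7, Anxa6 and Mir340 were the 3 whose groups did not overlap, in the same direction, in both HD and non-transgenic mice. Which strain the DNA around Sqstm1 came from is not named in the labels used here.

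Mir340 is the nearest of these, 0.13 Mb from Sqstm1, and its hairpin gives 2 mature microRNAs. They are shown because the probe set covers the miRNA gene and does not tell the arms apart. The capitals mark the seed, bases 2 to 8 from the 5′ end, through which a microRNA pairs with its targets, and the sequences are from RefSeq (GRCm38.p6), at chr11:50069720-50069741 and chr11:50069762-50069783 on the plus strand.
mmu-miR-340-5p: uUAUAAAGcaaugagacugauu
mmu-miR-340-3p: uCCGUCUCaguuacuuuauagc
The 2 arms have different seeds. Mir340 was at 4.16, 4.52 and 4.40 in HD_p62KO mice and at 3.950, 3.997 and 3.968 in HD_p62WT mice, a difference of 0.39 ± 0.089 (SE) that did not pass. These levels are near the low end of the arrays, and no call of detection was used.

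Glb1l3, a member of the beta-galactosidase family on chromosome 9, was at 5.37, 5.48 and 5.23 in HD_p62KO mice and at 6.18, 5.97 and 6.15 in HD_p62WT mice, with no overlap. Its difference was -0.74 ± 0.10 (SE; adjusted p = 0.0653) in HD mice and 0.02 ± 0.10 in non-transgenic mice. The difference between the 2 comparisons did not pass (adjusted p = 0.991). The 6 non-transgenic mice, at 5.68 to 6.03, all lay above the HD_p62KO mice, and 2 of the 3 HD_p62WT mice lay above all of them.

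Lrrc18, a leucine-rich repeat gene, showed HD_p62KO mice at the non-transgenic level. It was at 7.03, 7.25 and 6.96 in HD_p62KO mice and at 6.64, 6.62 and 6.64 in HD_p62WT mice, against 6.95 to 7.10 in the 6 non-transgenic mice. With normal p62 it fell by 0.41 in HD mice (SE 0.080; adjusted p = 0.0131). The p62 difference in HD mice was 0.45 ± 0.080 (SE; adjusted p = 0.519) and did not pass. Both differences use the same HD_p62WT mice and are not independent, and Lrrc18 was named for the size of its p62 difference. Low values in the HD_p62WT mice alone would give both.

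In all, 92 genes had an unadjusted p below 0.01 and no overlap between the HD groups, 37 higher and 55 lower in the knockouts, and of these Sqstm1 alone passed. Besides Lrrc18 and Mir340, the largest higher values were in Cstf2t (0.95), a cleavage stimulation factor subunit of mRNA 3′ end formation, Slf1 (0.70), which acts at stalled replication forks, and Eomes (0.57), a T-box transcription factor. They were followed by the axonemal dynein Dnah7b (0.52), the zinc finger gene Zfp982 (0.51), the RNA helicase Ddx31 (0.50), Morc1 (0.46) and the histone chaperone Nap1l1 (0.40). Cstf2t was among the dimmest genes, with means of 3.24 in HD_p62KO and 2.29 in HD_p62WT mice. Slf1 differed by -0.49 in non-transgenic mice, where its groups overlapped.

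Among the lower values were Themis (-0.69), a T-cell signalling protein, the olfactory receptors Olfr459 (-0.68) and Olfr1353 (-0.60), Zfp780b (-0.66) and the lectin-like receptor Olr1 (-0.56). Alpl (-0.53), the tissue-nonspecific alkaline phosphatase, and Mup5 (-0.52), a major urinary protein, were lower by similar amounts. Most were dim, with HD_p62WT means of 4.97 for Olfr1353, 5.42 for Mup5 and 5.68 for Themis, and Alpl was brightest at 7.24. Olfr459 was also lower in non-transgenic knockouts (-0.47), with no overlap. Olr1 was higher there (0.18), again with no overlap, opposite to HD mice.

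Genes tied to the functions of p62 were described in 9 lists, and no member of any list other than Sqstm1 passed for p62 loss in HD mice. Of these 9 medians, that of heat shock and chaperone genes was the 1 that kept its sign when each HD mouse was left out in turn. The receptors that carry ubiquitinated or organelle cargo to autophagy, as p62 does, had a median difference of 0.009 over 14 of 15 members measured. Nbr1, the receptor most related to p62, was at 10.17, 10.54 and 10.47 in HD_p62KO mice and at 10.31, 10.01 and 10.22 in HD_p62WT mice. These overlapped, with a difference of 0.21 ± 0.14 (SE). Tax1bp1, another ubiquitin-binding receptor, differed by 0.01 ± 0.13, and the mitophagy receptors Bnip3 and Bnip3l by 0.09 ± 0.074 and 0.01 ± 0.070. With Sqstm1 left out, the mean of the other 13 was 0.158 above the non-transgenic level in HD_p62WT mice and 0.184 above it in HD_p62KO mice.

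Core autophagy genes had a median of 0.003, with 19 of 33 higher, and 1 of 33 (3.03%) did not overlap, against 7.38% of all genes. Becn1, the scaffold of the lipid kinase that starts autophagosomes, differed by 0.12 ± 0.078 (SE), the ATG8 family member Gabarapl2 by 0.17 ± 0.11, and the lipid transporter Atg2a by -0.16 ± 0.081. Lysosomal genes had a median of 0.034, with 25 of 36 higher. Gla, the lysosomal alpha-galactosidase, was at 8.84, 8.74 and 8.68 in HD_p62KO mice and at 8.53, 8.53 and 8.62 in HD_p62WT mice, the 1 lysosomal gene without overlap (0.19 ± 0.094). Psap, the brightest lysosomal member, differed by 0.02 ± 0.060.

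Targets of NRF2, whose inhibitor KEAP1 p62 sequesters, had a median of 0.014, with 17 of 31 higher. Cbr3, a carbonyl reductase, was at 7.59, 7.68 and 7.84 in HD_p62KO mice and at 7.95, 7.97 and 7.95 in HD_p62WT mice, with no overlap (-0.25 ± 0.11). The 6 non-transgenic mice were higher, at 8.11 to 8.44. Nqo1, the quinone reductase often used to read NRF2 activity, differed by -0.04 ± 0.12 (SE), Keap1 by -0.04 ± 0.068 and Nfe2l2, which encodes NRF2, by 0.06 ± 0.10. In the proximal promoters (RefSeq, GRCm38.p6; 250 bases before the start, both strands) the letters TGACNNNGC, the core of the antioxidant response element, occurred in 7 of 26 measured targets with a sequence (26.9%) and in 11.5% of all genes with one.

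The NF-kappaB and inflammatory genes had a median of -0.008, with 11 of 23 higher. Relb, a subunit of noncanonical NF-kappaB, was at 5.45, 4.81 and 5.55 in HD_p62KO mice and at 5.98, 5.55 and 6.42 in HD_p62WT mice. The groups touched at 5.55, and the difference of -0.71 ± 0.24 (SE) did not pass. Ptgs2, the inducible cyclooxygenase, was lower with no overlap (-0.19 ± 0.10), and Il6 differed by -0.22 ± 0.13 at dim means of 3.43 and 3.65. Signalling partners of p62 had a median of 0.008, and Prkci, the atypical protein kinase C that binds its PB1 domain, differed by 0.15 ± 0.10 with no overlap.

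In the protein quality control lists no member passed. The proteasome and ubiquitin medians changed sign without single HD mice, and that of heat shock genes kept its sign but varied from 0.027 to 0.092. Of 39 heat shock and chaperone genes, 36 were higher in HD_p62KO than HD_p62WT mice, against 49% of all genes. The median was 0.052 against -0.0022 for all genes. Groups did not overlap for 3 of 39 (7.69%), all higher, against 7.38% of all genes either way and 3.26% higher. Dnajb1, an HSP40 cochaperone, was at 9.03, 9.19 and 9.10 in HD_p62KO mice and at 9.06, 8.72 and 8.93 in HD_p62WT mice (0.20 ± 0.091). Hspa8, the constitutive HSP70, was at 12.73, 12.81 and 12.78 against 12.58, 12.66 and 12.73 (0.12 ± 0.065), higher in each knockout by a small margin. Cct6a, a subunit of the chaperonin TRiC, was higher in HD knockouts (0.14 ± 0.071) and lower in non-transgenic knockouts (-0.10 ± 0.071), without overlap in either. The list mean was 0.044, 0.175 and 0.103 in HD_p62KO mice and 0.099, -0.077 and 0.073 in HD_p62WT mice. The groups overlapped, and HD_p62WT replicate 2 and HD_p62KO replicate 1, the HD arrays with the smallest spread, were the lowest of their groups. Without HD_p62WT replicate 2, 24 of 39 genes were higher with a median of 0.027. Without both of these arrays 27 of 39 were higher with a median of 0.047, and with array spread as a covariate 30 of 39 were, with a median of 0.042, both alternatives chosen after seeing the data.

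Proteasome subunits and factors had a median of 0.031, with 24 of 36 higher, but without HD_p62WT replicate 2 the median was -0.026 with 10 of 36 higher. The largest difference was in Psmd1, a base subunit of the regulatory particle, at 7.13, 7.44 and 7.85 in HD_p62KO mice and at 7.09, 6.91 and 7.35 in HD_p62WT mice (0.36 ± 0.19, SE). With normal p62, Psmd1 rose by 0.70 ± 0.19 in HD mice (adjusted p = 0.0440), so the higher level without p62 was farther from the non-transgenic one. Ubiquitin and aggregate handling genes had a median of 0.016, which was -0.025 without HD_p62WT replicate 2 and -0.015 without HD_p62KO replicate 2, with the ubiquitin ligase Huwe1 at 0.19 ± 0.11 and the cochaperone Bag3 at -0.10 ± 0.073. Huwe1 did not overlap between the groups, at 11.19, 11.43 and 11.28 in HD_p62KO mice and 11.17, 11.02 and 11.16 in HD_p62WT mice.

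**Figure D2:**
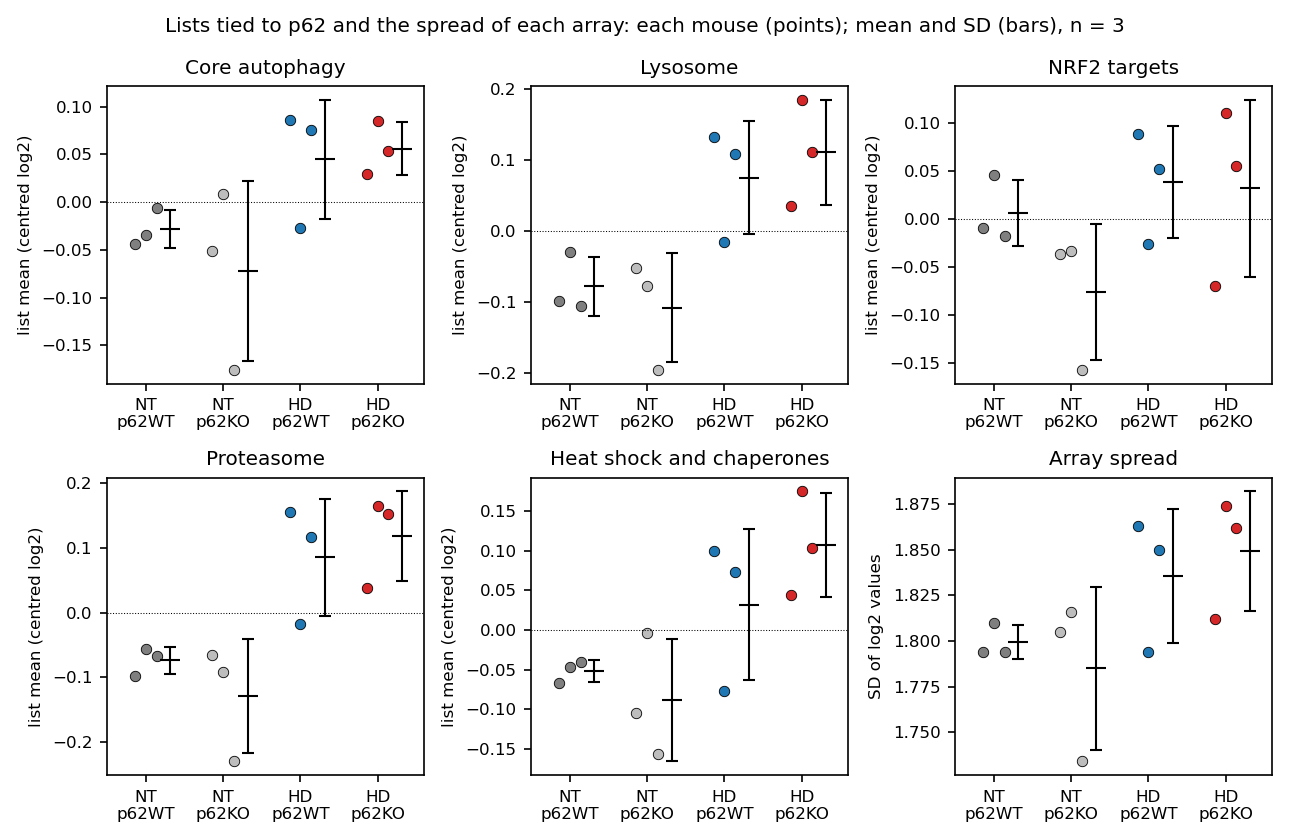
Mean of 5 gene lists tied to p62 function in each mouse, each gene centred on its mean over the 12 arrays (log2), and, in the last panel, the SD of log2 values over genes on each array; bars give the group mean and SD (n = 3). The HD groups overlap in every panel, and the lowest HD_p62WT mouse of each list, replicate 2, is also the HD array with the smallest spread.

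A further 9 lists held genes or pathways reported to be altered in HD striatum, and their level in each mouse was set against the mean of the 6 non-transgenic mice. In 6 of the 9 lists the HD_p62KO mean lay farther from the non-transgenic level than the HD_p62WT mean, and in 3 it lay nearer. This tally depended on single HD mice. Without HD_p62KO replicate 2 it was 3 farther and 6 nearer, without HD_p62KO replicate 3 it was 8 and 1, and without HD_p62WT replicate 2 or 3 it was 5 and 4. Projection neuron genes, interferon-stimulated genes and huntingtin partners lay farther and interneuron markers nearer whichever of the 12 mice was left out. For huntingtin partners this was marginal. Without HD_p62KO replicate 2 the other knockouts were at 0.010 and 0.099 against an HD_p62WT mean of 0.053, and the list median was -0.033. The projection neuron list was the one of the 9 whose HD groups did not overlap. No member of these lists passed for p62 loss in HD mice. The lists were composed with earlier results of these data known, so neither their HD differences nor their p62 differences are independent evidence.

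Projection neuron genes were slightly farther from the non-transgenic level without p62. The mean of 61 measured genes was -0.272, -0.222 and -0.246 in HD_p62KO mice and -0.186, -0.201 and -0.206 in HD_p62WT mice, against 0.109 to 0.351 in the 6 non-transgenic mice. All 3 HD_p62KO mice were thus below all 3 HD_p62WT mice. The distance from the non-transgenic mean was -0.420 with normal p62 and -0.469 without it. Of the 61 genes, 46 were lower in HD_p62KO mice, with a median of -0.061. Groups did not overlap for 13 lower genes (21.3%, against 4.11% of all genes) and for 1 higher gene, Pde1c. The genes of the list are not independent observations. In the HD comparison with normal p62, 39 of the 61 fell and 2 rose, and without p62 47 fell and 1 rose. Of all genes, 3.24% fell and 3.85% rose with normal p62, and 8.34% fell and 13.3% rose without it. More genes were thus called without p62 in general, not in this list alone. In bulk tissue, fewer cells of a type and less RNA per cell cannot be told apart.

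Several of the 13 act in dopamine and cAMP signalling. Gng7, a G-protein gamma subunit that couples striatal receptors to adenylyl cyclase, was at 12.06, 12.01 and 11.92 in HD_p62KO mice and at 12.09, 12.38 and 12.18 in HD_p62WT mice. The difference of -0.22 (95% confidence interval -0.40 to -0.04) was the largest of the 13, and it left HD_p62KO mice below the 12.22 to 12.36 of the 6 non-transgenic mice. Drd2, the D2 dopamine receptor of indirect pathway neurons, was at 10.71, 10.67 and 10.59 in HD_p62KO mice, at 10.89, 10.82 and 10.76 in HD_p62WT mice and at 11.18 to 11.50 in non-transgenic mice. The order of the 3 levels was the same in Pde1b, a calmodulin-dependent phosphodiesterase, at 11.30, 11.31 and 11.17, then 11.46, 11.38 and 11.44, then 11.78 to 12.01. Ppp1r1b, which encodes the dopamine-regulated phosphatase inhibitor DARPP-32, followed the same order at 10.70, 10.69 and 10.44, then 10.82, 10.81 and 10.71, then 11.19 to 11.48.

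Pde10a, the main cAMP and cGMP hydrolase of these neurons, differed by -0.12 ± 0.075 (SE) between the HD groups, Rgs9, which speeds the shut-off of D2 receptor signalling, by -0.13 ± 0.082, and Rasd2, the striatal GTPase Rhes, by -0.15 ± 0.085. The sodium channel subunit Scn4b, the member with the smallest p in the HD comparison with normal p62, was at 8.82, 8.99 and 8.82 in HD_p62KO mice and 9.005, 9.031 and 9.018 in HD_p62WT mice, against 10.65 to 10.91 without the transgene. Its p62 difference of -0.14 was small beside the distance of -1.77 between HD and non-transgenic mice with normal p62. The remaining 5 of the 13 were the cytoskeletal Actn2 (-0.17), Pde7b (-0.15), Sez6 (-0.11), the receptor Gpr149 (-0.08) and the calcium sensor Hpca (-0.07). Gpr149 was above the non-transgenic mean in both HD groups, by 0.62 in HD_p62WT and 0.53 in HD_p62KO mice, so its lower level was nearer to it.

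Among other projection neuron genes the HD groups overlapped. Cnr1, the CB1 cannabinoid receptor, was at 9.41, 9.48 and 9.54 in HD_p62KO mice and at 9.60, 9.41 and 9.48 in HD_p62WT mice, with a difference of -0.02 (95% confidence interval -0.22 to 0.18). Rasgrp2, an exchange factor for Rap, differed by 0.03 (-0.14 to 0.20), Penk by -0.05 (-0.19 to 0.10) and Pdyn, the dynorphin precursor of direct pathway neurons, by 0.03 (-0.19 to 0.24). Drd1, the D1 dopamine receptor of direct pathway neurons, was at 10.05, 9.95 and 9.99 against 10.04, 10.21 and 10.13, with a slight overlap and a difference of -0.13 (-0.29 to 0.02), the size of that in Rgs9. Over the alternatives tried, which included array spread (-0.072) and choroid plexus level (-0.059) as covariates, the list median lay between -0.074 and -0.05.

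**Figure D3:**
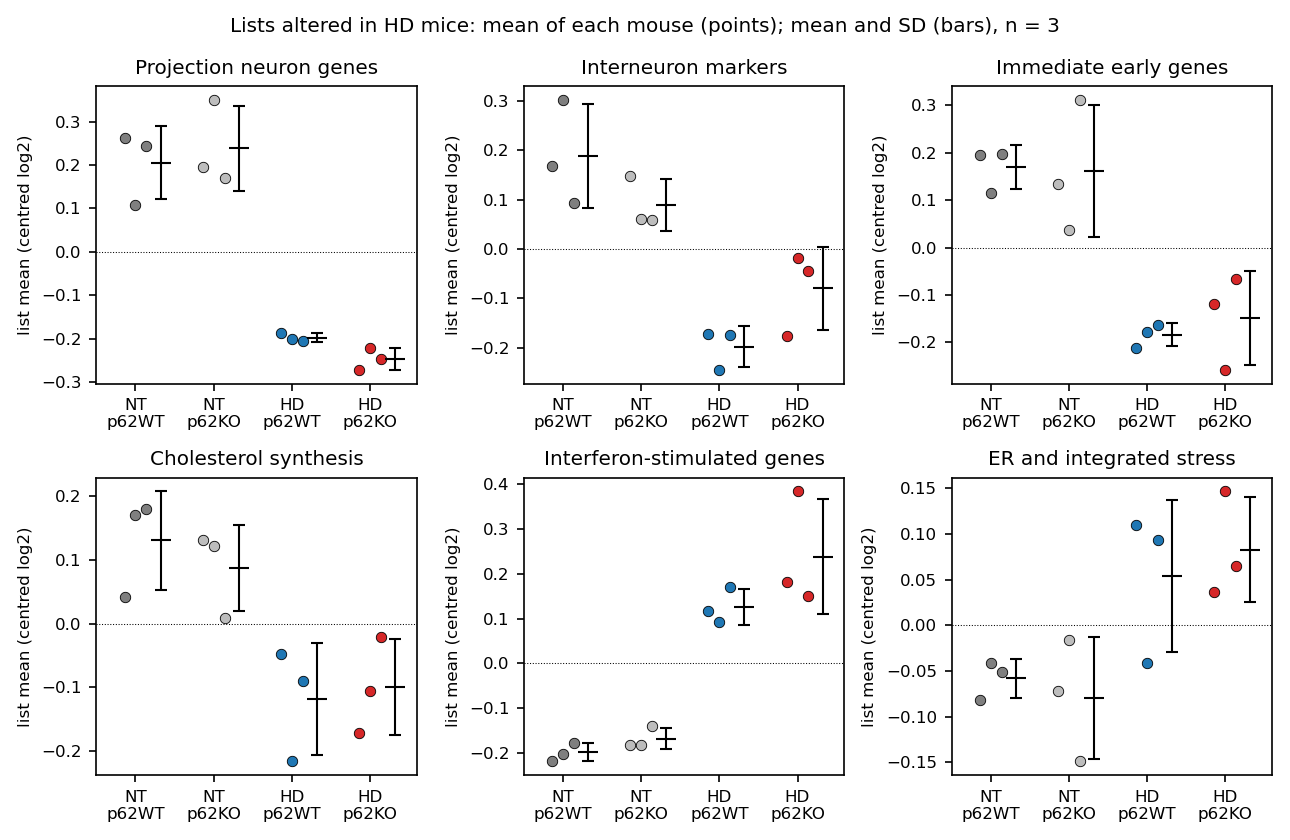
Mean of 6 gene lists in each mouse, each gene centred on its mean over the 12 arrays (log2), with the group mean and SD (bars, n = 3). The HD mice lie below the non-transgenic mice for projection neuron, interneuron, immediate early and cholesterol genes and above them for interferon-stimulated genes, and projection neuron genes are the 1 panel in which the HD_p62KO and HD_p62WT mice do not overlap.

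Interferon-stimulated genes were also farther from the non-transgenic level without p62, with 1 mouse well above the rest. These genes answer type I interferon through the factor ISGF3, which binds an element with the core GAAA, any 2 bases, and GAAA again. This core occurred on either strand of the proximal promoter in 11 of 25 list genes with a sequence (44.0%), against 3.46% of all genes with a promoter of the same length. The promoters of 4 such members described here and of B2m are shown with matches in capitals, where TTTC, 2 bases and TTTC is a match on the opposite strand, 5′ to 3′ on the strand of the gene.
Ifit3, chr19:34583358-34583431, plus strand: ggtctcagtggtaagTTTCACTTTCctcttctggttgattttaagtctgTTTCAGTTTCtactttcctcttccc
Ifit1, chr19:34640770-34640828, plus strand: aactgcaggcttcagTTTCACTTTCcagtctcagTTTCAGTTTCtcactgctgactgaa
Rsad2, chr12:26456548-26456587, minus strand: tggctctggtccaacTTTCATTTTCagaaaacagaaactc
Oas1a, chr5:120907526-120907560, minus strand: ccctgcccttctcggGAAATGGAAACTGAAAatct
B2m, chr2:122147533-122147572, plus strand: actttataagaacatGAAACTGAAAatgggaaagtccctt
Ifit3 and Ifit1 each hold 2 separate matches, and those of Oas1a overlap. A match describes the sequence and does not show binding.

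The mean of 36 measured interferon-stimulated genes was 0.181, 0.385 and 0.150 in HD_p62KO mice and 0.118, 0.092 and 0.171 in HD_p62WT mice, against -0.217 to -0.140 in the 6 non-transgenic mice. HD_p62KO replicate 2 was the highest of the 12, replicate 1 lay just above the HD_p62WT mice, and replicate 3 lay among them. The distance from the non-transgenic mean was 0.310 with normal p62 and 0.422 without it. Of the 36 genes, 28 were higher in HD_p62KO mice, with a median of 0.099, and 5 did not overlap (13.9%, against 3.26% of all genes). Without HD_p62KO replicate 2, which also had the highest choroid plexus level of the 12 mice (1.23), the median was 0.038. With the choroid plexus level as a covariate it was 0.068, and 28 genes were again higher. In the HD comparison 14 members rose with normal p62 and 17 without it, and 0 fell in either. Of all genes, 3.85% rose with normal p62 and 13.3% without it, so the larger count without p62 was not particular to this list.

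Ifit3, an antiviral effector, was at 8.37, 9.06 and 8.72 in HD_p62KO mice, at 8.48, 8.22 and 8.27 in HD_p62WT mice and at 7.31 to 7.79 in non-transgenic mice. Its p62 difference of 0.39 ± 0.17 (SE) was the largest of the list, and the HD groups overlapped. Ifit1, a close relative that binds viral RNA, was at 7.26, 7.84 and 7.26 against 7.22, 7.01 and 7.24 (0.30 ± 0.16), just without overlap. Rsad2, the antiviral enzyme viperin, was at 6.70, 7.16 and 6.60 against 6.51, 6.58 and 6.47 (0.30 ± 0.14). In each of these, replicate 2 was the highest knockout.

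Ddx58, which encodes the RNA sensor RIG-I, was at 7.19, 7.60 and 7.43 in HD_p62KO mice and at 7.10, 7.09 and 7.18 in HD_p62WT mice (0.28 ± 0.12), and Oas1a, an oligoadenylate synthetase, was at 7.80, 8.02 and 7.92 against 7.74, 7.75 and 7.55 (0.23 ± 0.094). Irf9, the DNA-binding subunit of ISGF3, was at 8.32, 8.69 and 8.42 against 8.36, 8.18 and 8.28, with overlap (0.21 ± 0.10). Usp18, a feedback inhibitor of interferon signalling, differed by 0.07 ± 0.086 and the ubiquitin ligase Trim25 by -0.03 ± 0.094. B2m, the MHC class I light chain, was at 11.27, 11.44 and 11.21 in HD_p62KO mice and at 11.05, 11.08 and 11.09 in HD_p62WT mice, without overlap (0.24 ± 0.11), and at 10.31 to 10.77 in non-transgenic mice. The other 11 measured MHC class I and immunoproteasome genes had a median of 0.007, with Tapbpl at -0.15 ± 0.076.

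**Figure D4:**
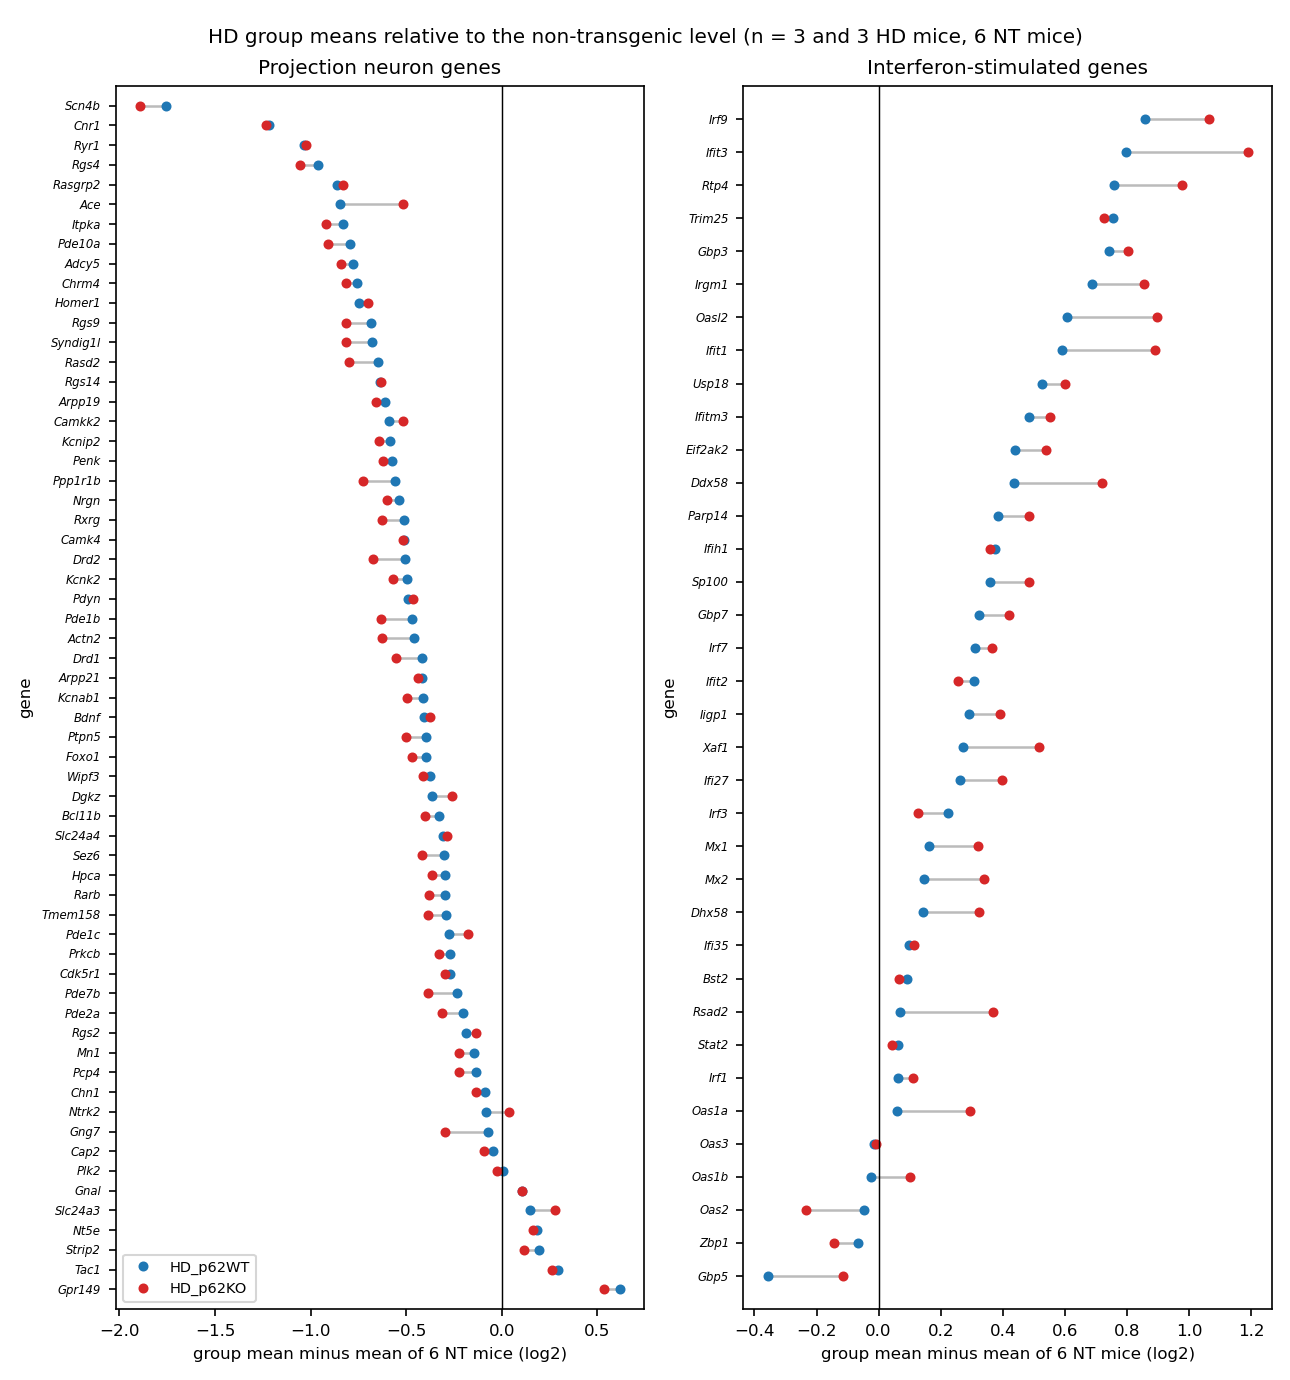
Mean of the HD_p62WT mice (blue) and of the HD_p62KO mice (red) minus the mean of the 6 non-transgenic mice (log2) for each measured projection neuron gene (left) and interferon-stimulated gene (right), with 3 mice per HD group. Most red points lie farther from 0 than the blue ones, and single genes go the other way, such as Ace on the left and Gbp5 on the right.

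Interneuron markers were among the lists nearer to the non-transgenic level without p62. The mean of 18 markers was -0.176, -0.019 and -0.044 in HD_p62KO mice and -0.173, -0.245 and -0.175 in HD_p62WT mice, a distance from the non-transgenic mean of -0.218 and -0.336. Much of this came from Calb2, the calretinin gene, at 6.83, 8.34 and 8.14 in HD_p62KO mice and at 6.45, 6.41 and 6.69 in HD_p62WT mice (1.26 ± 0.48, SE). Non-transgenic mice varied as widely, from 6.26 to 8.53. Without Calb2 the distances were -0.264 and -0.315. Nos1, the nitric oxide synthase of one interneuron class, was at 8.68, 8.72 and 8.75 in HD_p62KO mice, at 8.54, 8.62 and 8.55 in HD_p62WT mice and at 8.97 to 9.22 in non-transgenic mice, nearer without overlap (0.15 ± 0.072). Sst, the somatostatin gene of the same class, differed by 0.10 ± 0.081, and Chat, which makes acetylcholine in cholinergic interneurons, by 0.24 ± 0.21.

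Immediate early genes, which report recent neuronal activity, had a mean 0.350 below the non-transgenic level with normal p62 and 0.313 below it without p62, and the HD groups overlapped. Nr4a3, a nuclear receptor, was at 9.14, 9.05 and 9.31 in HD_p62KO mice and at 8.91, 8.91 and 8.81 in HD_p62WT mice (0.29 ± 0.12), against 9.14 to 9.65 in non-transgenic mice. Egr3, Homer1 and Nptx2, the members with the smallest p in the HD comparison, differed by -0.04 ± 0.068, 0.04 ± 0.077 and -0.05 ± 0.10. The list median of 0.032 changed sign for 3 of the 6 HD mice left out in turn, and was lowest without HD_p62KO replicate 3 (-0.026).

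Of 22 cholesterol synthesis genes, 7 fell in HD mice with normal p62, against 3.24% of all genes. Their mean lay at distances of -0.227 with and -0.208 without p62, and the HD groups overlapped. The list was no longer nearer without p62 when HD_p62KO replicate 3 or HD_p62WT replicate 2 was left out. Its median of 0.03 was -0.026 without HD_p62WT replicate 2. Nsdhl, a sterol dehydrogenase, was at 9.45, 9.36 and 9.37 in HD_p62KO mice, at 9.26, 9.19 and 9.05 in HD_p62WT mice and at 9.43 to 9.52 in non-transgenic mice. It fell by 0.33 in HD mice with normal p62 (SE 0.067; adjusted p = 0.0158), and its p62 difference of 0.23 ± 0.067 did not pass. Both use the same HD_p62WT mice and are not independent. The knockouts thus lay between HD_p62WT and most non-transgenic mice. The early kinases of the mevalonate pathway went the other way without overlap, Pmvk (-0.20 ± 0.088) and Mvk (-0.14 ± 0.072). The sterol oxidase Msmo1 differed by 0.12 ± 0.14, the regulator Insig1 by 0.08 ± 0.096 and the transcription factor Srebf2 by -0.02 ± 0.067. A sterol response element in 1 exact form of 10 letters was in 0 of 18 genes of the list with a promoter and in 0.0814% of all genes with one, on either strand.

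The endoplasmic reticulum and integrated stress response list had a median of 0.02, and 26 of 40 genes were higher in HD_p62KO mice. Ddit4, an inhibitor of mTORC1, was at 8.25, 8.52 and 8.20 in HD_p62KO mice, at 8.11, 8.02 and 8.04 in HD_p62WT mice and at 8.22 to 8.46 in non-transgenic mice. Its difference of 0.26 ± 0.090 (SE) placed the knockouts near the non-transgenic level. The same HD_p62WT mice enter this difference and the distance of HD mice with normal p62 from that level. Sesn2, another stress-induced brake on mTORC1, was at 7.10, 7.16 and 7.16 against 7.05, 6.99 and 6.90, above the non-transgenic 6.70 to 7.02 in each knockout. Atf4, the factor that drives this response, differed by 0.15 ± 0.087. Psat1, Shmt2 and Eif2ak4, the members with the smallest p in the HD comparison, differed by 0.02 ± 0.085, 0.08 ± 0.11 and -0.01 ± 0.061. Without HD_p62WT replicate 2 the list median was -0.029.

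Respiratory chain genes had a median of 0.025, and differences ran from -0.11 to 0.10. Of the 38, 0 were without overlap, against 7.38% of all genes. The median was -0.024 without HD_p62KO replicate 2 and -0.022 without HD_p62WT replicate 2. Huntingtin and its partners had a median of 0.036, which was -0.033 without HD_p62KO replicate 2 and -0.022 without HD_p62WT replicate 2. Htt itself was at 9.24, 9.28 and 9.30 in HD_p62KO mice and at 9.22, 9.30 and 9.44 in HD_p62WT mice (-0.04 ± 0.077), and whether its probe set reads the transgene is not named in the labels. Sp1, a transcription factor that binds huntingtin, differed by -0.27 ± 0.11 without overlap, and Hap1, huntingtin-associated protein 1, by 0.30 ± 0.20.

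Markers of other cell types were described in 10 lists, in which no gene passed for p62 loss in HD mice. Astrocyte markers had a median of 0.038 with 14 of 18 higher, but the neurotensin receptor Ntsr2 was lower without overlap (-0.29 ± 0.11, SE). Of 17 markers of mature oligodendrocytes 15 were lower, with a median of -0.03, but without HD_p62KO replicate 3 only 8 were (median 0.011), and without HD_p62WT replicate 2 the median was -0.125. Gjb1, the gap junction protein connexin 32, was at -0.17 ± 0.093. Of 14 markers of their precursors 12 were lower, with a median of -0.067, and Bmp4 and Cspg4, which encodes NG2, did not overlap (-0.16 ± 0.068 and -0.11 ± 0.064). Microglial markers had a median of -0.032 and 0 of 18 without overlap, against 7.38% of all genes. Trem2 was at -0.15 ± 0.097 and the complement gene C1qb at 0.15 ± 0.11. Endothelial and mural markers had a median of -0.043.

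Markers of neurons bordering the striatum differed more. The septal, pallidal and thalamic list had a mean of 0.032, 0.075 and 0.142 in HD_p62KO mice and -0.119, -0.288 and -0.020 in HD_p62WT mice, without overlap, and 11 of 14 genes were higher. Zic1, a zinc finger factor of septal neurons, was at 8.79, 8.93 and 9.56 in HD_p62KO mice and at 8.36, 8.07 and 8.55 in HD_p62WT mice (0.77 ± 0.34), and Zic2 was likewise higher without overlap (0.37 ± 0.23). Both varied as much among the 6 non-transgenic mice, from 8.20 to 9.47 for Zic1. Trpc4, a cation channel of lateral septum, differed by 0.31 ± 0.14. These markers differed in the same direction as Calb2 and opposite to the projection neuron genes, and their part in those differences was not tested.

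The cortical excitatory list had a median of 0.065, with Nrn1 at 0.48 ± 0.30 and Neurod1 at -0.52 ± 0.26, each without overlap. All 14 choroid plexus markers had a positive difference, with a median of 0.312, but none was without overlap. Without HD_p62KO replicate 2 that median was -0.177, and without replicate 1 it was 0.767, so the value followed single mice. Ependymal markers had a median of 0.108, with the ciliary dynein Dnah11 higher without overlap in both HD (0.16 ± 0.078) and non-transgenic knockouts (0.19). Of the red blood cell list, 2 of 7 genes were measured.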

How the data were processed

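Per the labels' protocols, 100 ng of striatal RNA per sample was put on an Affymetrix array that covers whole transcripts. Per the submitters' processing notes, the authors used RMA, and the deposited values are log2 expression per probe set. Its version, its settings and the genome build are not named in the labels. RMA equalizes arrays, which hides a change common to most genes. Of 24055 probe sets, 19942 had 1 gene symbol, 1225 several and 2888 were not listed in the platform table. For 470 genes with several, the brightest over 12 arrays was kept. Of the 4113 probe sets with several symbols or none, 0 passed in limma.

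A mean per group was fitted to all 12 arrays (limma 3.58.1, R 4.3.3; 8 residual degrees of freedom), with Benjamini-Hochberg adjustment over all genes. The fit was tested on simulated data. P-values measure the spread between samples that the labels call biological replicates. Replicate numbers are tied to nothing in the labels, and same-numbered HD mice did not deviate together (correlations -0.322, -0.291 and 0.11).

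Members and lists were chosen with earlier results of these data known. Named were Sqstm1, genes past the threshold, the 10 largest differences each way among genes with an unadjusted p below 0.01 and no overlap, in each list the 3 smallest p and the brightest member, and in 6 HD lists the 3 smallest p for the HD difference. Predicted genes were counted and not named. Other list members given by value, and Anxa6, were chosen for their function or after their values were seen. Lists were described without a test; of 742 entries 668 were measured. Gene positions and sequences are from RefSeq (GRCm38.p6). Alternatives covered normalization, filters, probe sets, variance settings, weights, thresholds, a replicate block and each mouse left out. Chosen after seeing the data were array spread or choroid plexus level as a covariate and leaving out small-spread arrays.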

Additional observations from a re-analysis of the deposited data

How the results depend on the processing

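Sqstm1 passed for p62 loss in HD mice under all 26 alternatives that gave gene values, with log2 differences of -2.606 to -2.359. The count of 1 gene became 2 when genes below the 25th percentile of brightness were left out (Lyrm7, limma adjusted p = 0.0468), 2 with array weights (Glb1l3, 0.0126) and 3 at an adjusted p below 0.1 (both). With single mice left out it ran from 1 to 2, adding Lyrm7 without HD_p62WT replicate 3 (0.0306) and Glb1l3 without NT_p62WT replicate 1 (0.0242). Over the alternatives the adjusted p of Lyrm7 ran from 0.0306 to 0.424 and that of Glb1l3 from 0.0126 to 0.47. With a replicate block the count was 1 in HD and 1 in non-transgenic mice, and it changed no call. In non-transgenic mice the count of 1 became 4 when only the 2 groups compared were fitted, adding the choroid plexus markers F5, Kcnj13 and Kl. The count of 0 for the difference between the p62 effects ran from 0 to 1 with single mice left out (Slf1, without NT_p62WT replicate 2). Of 138 named genes, 113 kept their sign under every alternative run. Of the 28 list medians, 19 changed sign without at least 1 of the 6 HD mice, among them 8 of the 9 lists tied to p62 function. Precision is limited by having 3 arrays in each group, and signal over background could not be judged without detection calls.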
